A study of Homo sapiens with 6 samples.

Results

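The 9 genes described here encode proteins of the tight junction: CLDN1, CLDN4, CLDN7, CLDN12, OCLN, MARVELD2, F11R, TJP1 and CGN. They were taken by symbol from a table of 46427 genes. CLDN1 was chosen by its log2 fold change in these libraries, which was the largest of the junction genes, so its change is given as a description with no test. The other 8 were included as tight junction proteins. RNA was sequenced from MDA-MB-231, an established human breast cancer cell line of genotype WT, to ask which genes change when TAZ is depleted. The cells received control-siRNA (3 libraries, 49662504 to 66769103 counts) or TAZ-siRNA (3 libraries, 48307548 to 71749634 counts), and each library came from 1 cell preparation. Both groups were grown in low-glucose DMEM with fetal bovine serum. TAZ-siRNA was a siGENOME reagent against human WWTR1, the gene of TAZ, delivered with DharmaFECT4, and each group is this 1 line with 1 reagent.

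Tight junctions seal the space between neighbouring epithelial cells near their apical side. Claudins form the strands that set which ions and solutes pass between the cells, occludin and tricellulin lie in the same strands, and the plaque proteins ZO-1 and cingulin tie the strands to actin. TAZ is a transcriptional coactivator of the Hippo pathway that acts on DNA through TEAD factors. Metastatic lines such as MDA-MB-231 have few typical epithelial junctions.

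WWTR1 fell from 191 ± 1.46 CPM (counts scaled to library size, mean ± SD, n = 3) to 16.5 ± 1.21 CPM, a log2 fold change of -3.53 (SE 0.061), so the labels held in all 6 libraries. Of 16966 genes tested with edgeR, 22.1% were called at an adjusted p below 0.05. Libraries of both groups were labelled epithelial. The keratins KRT8 and KRT18 were abundant, at 593 and 854 TPM (a level scaled for transcript length and library size) with control-siRNA. Of the markers that define epithelial cells, EPCAM was low at 1.81 TPM and CDH1 near 0 at 0.12 TPM. VIM, a mesenchymal filament gene, stood at 3733 TPM with control-siRNA and 3836 TPM with TAZ-siRNA, and its log2 fold change in CPM was -0.072 (edgeR adjusted p = 0.46). The summed level of the 6 epithelial markers was 2014 to 2065 TPM with control-siRNA and 1864 to 1943 TPM with TAZ-siRNA, and KRT7 fell while KRT19 rose. The summed level of the 5 mesenchymal markers, most of it VIM, was 3926 to 4123 TPM and 4172 to 4277 TPM, and SPARC was the 1 of them called, with a rise of 0.74 on the log2 scale (edgeR adjusted p = 6.1e-05). CDH2, also among these 5, was near 0, at 0.17 TPM with control-siRNA and 0.088 TPM with TAZ-siRNA. The part of these marker levels in the junction results was not tested, and in bulk RNA fewer cells of a type cannot be told apart from less RNA per cell. The 3 leukocyte markers summed to 93.7 to 99.4 TPM and 71.2 to 77.2 TPM, all of it CD68, with PTPRC and CD3E listed at 0. CD68 fell by 0.42 on the log2 scale (edgeR adjusted p = 0.0019). The 3 endothelial markers summed to 2.14 to 2.95 TPM and 2.22 to 3.67 TPM. The 4 fibroblast markers summed to 2.43 to 2.83 TPM and 3.42 to 4.10 TPM, nearly all COL1A1, which rose by 0.42 (edgeR adjusted p = 0.0070), with DCN listed at 0.

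The 250 bases before the start sites of CLDN1 and CLDN4 are shown because these 2 claudins moved in opposite directions. They are RefSeq promoters of GRCh38.p14, printed on the strand of the gene, for CLDN1 from chr3:190322447-190322696 (minus strand) and for CLDN4 from chr7:73830746-73830995 (plus strand). Capitals mark an AP-1 match.
CLDN1: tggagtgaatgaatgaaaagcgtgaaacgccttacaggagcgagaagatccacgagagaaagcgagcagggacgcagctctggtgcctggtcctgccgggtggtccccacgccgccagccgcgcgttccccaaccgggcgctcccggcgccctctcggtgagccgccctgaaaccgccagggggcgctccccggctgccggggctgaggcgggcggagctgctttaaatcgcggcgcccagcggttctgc
CLDN4: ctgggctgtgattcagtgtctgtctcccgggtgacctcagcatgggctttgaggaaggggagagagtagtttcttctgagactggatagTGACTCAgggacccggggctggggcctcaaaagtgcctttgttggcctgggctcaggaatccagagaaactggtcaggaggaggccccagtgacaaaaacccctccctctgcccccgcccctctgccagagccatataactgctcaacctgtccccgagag

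Both strands were searched for 4 motifs, and no 2 matches overlapped in the windows of these genes. TEAD factors are known to bind GGAATG, and AP-1 factors TGACTCA. SNAI and ZEB repressors bind the E-box CACCTG, and the box for the TATA-binding protein was searched as TATAAA. The CLDN1 window held none of the 4, and the CLDN4 window held 1, the AP-1 letters 161 bases before the start site. Of 35116 RefSeq promoter windows of this length, 11.9% held the TEAD letters, 4.20% the AP-1 letters, 17.5% the E-box and 10.7% the TATA box. Promoter entries were matched for 8 of the 9 genes, with 13 windows in all, and not for F11R. None of the 13 held the TEAD or the TATA letters, 1 held AP-1, and 4 held the E-box. The E-box windows were both OCLN windows, the distal TJP1 window and the more downstream of 2 CLDN7 windows, which held 4 matches. G and C made up 68.8% of the CLDN1 window and 58.8% of the CLDN4 window, against a median of 58% over all windows. A match of letters is a description, and no binding was measured here.

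CLDN1 (NCBI gene 9076, GRCh38 chr3:190305707-190322446, minus strand) encodes a claudin that seals the paracellular space in skin and many other epithelia. Its level was 24.7, 25.2 and 26.8 CPM in control-siRNA replicates 1 to 3 and 6.39, 5.05 and 7.70 CPM in the TAZ-siRNA replicates. Every TAZ-siRNA library lay far below every control library, and the groups were separated by 1.68 on the log2 scale. The mean went from 25.6 ± 1.11 CPM to 6.38 ± 1.33 CPM (SD, n = 3), which is 24.9% of the control level and a log2 fold change of -2.00 (SE 0.12). On the log2 scale the TAZ-siRNA libraries spanned 0.61 and the control libraries 0.12. Without any 1 library the change lay between -2.14 and -1.86.

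Among all genes tested, 52 had a larger log2 fold change in size than CLDN1, and 7 fell further while averaging at least 1 CPM. Within the junction genes listed here, the next largest was CGNL1 at 0.91, with CLDN2 left out of this order. CLDN2 had a value of 1.11 but passed the count filter only through its TAZ-siRNA libraries. CLDN1 has 1 annotated transcript, so the change is that of the whole gene. CLDN16 overlaps CLDN1 on the opposite strand and had at most 15 counts in any library, against 249 to 1648 for CLDN1.

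**Figure D1:**
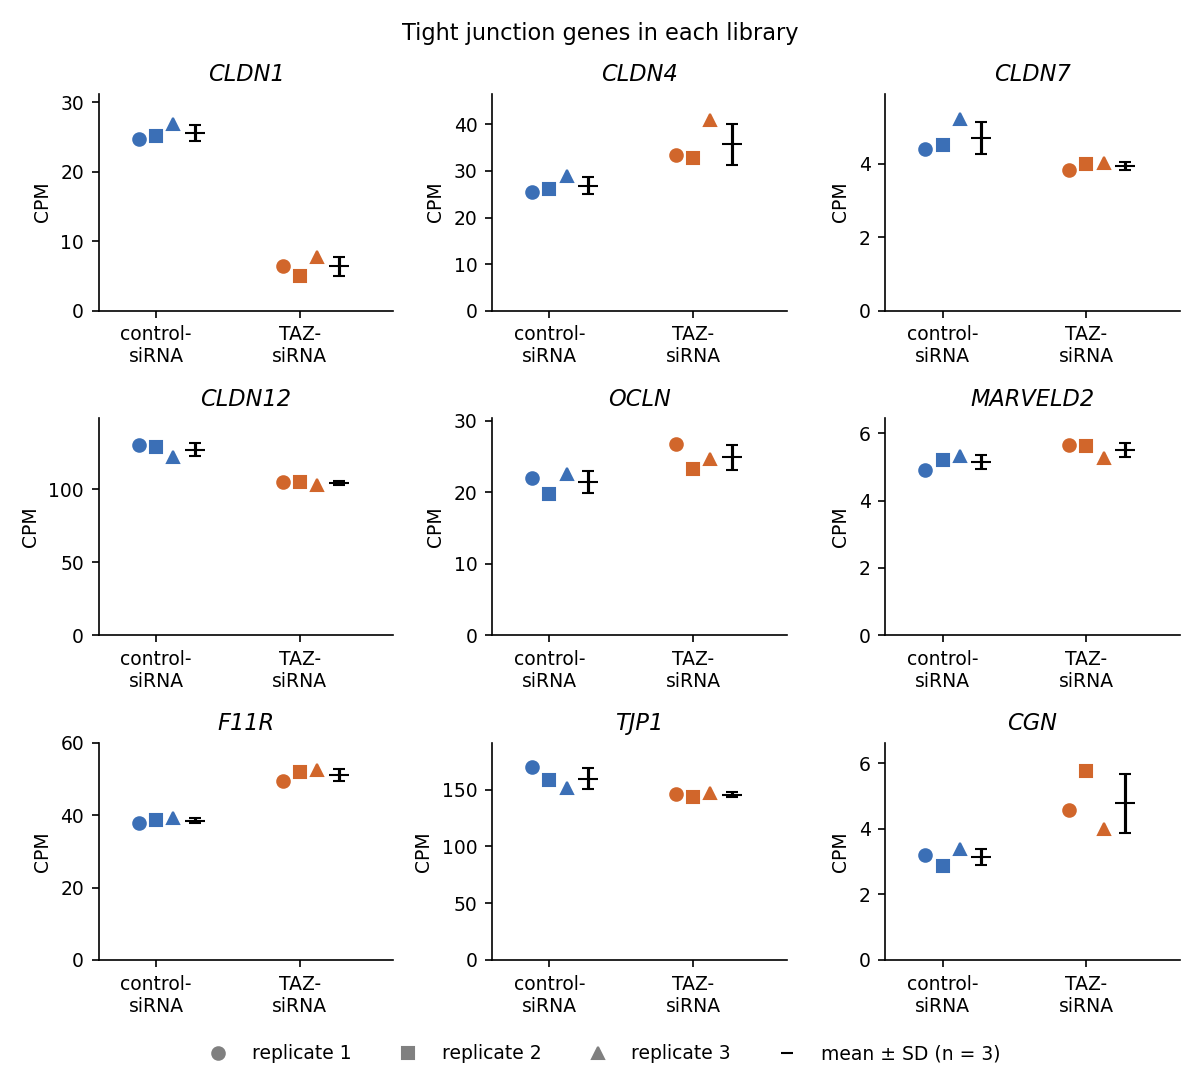
Level of each of the 9 tight junction genes in each library, in CPM from 0, with control-siRNA in blue and TAZ-siRNA in orange, 1 symbol per replicate and the mean ± SD (n = 3) in black. CLDN1 drops from 24.7 to 26.8 CPM to 5.05 to 7.70 CPM, while CLDN4, F11R and CGN sit higher and CLDN12 lower by smaller steps, and MARVELD2 overlaps between the groups.

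The other 8 genes changed less and in both directions. At an adjusted p below 0.05 over all genes tested, 3 were higher with TAZ-siRNA (CLDN4, F11R and CGN), where 11.9% of all genes were, and 1 was lower (CLDN12), where 10.2% were. For 7 of the 8 the groups were fully separated by library in CPM, as for 39.6% of all genes tested. Of the 7, 4 were higher with TAZ-siRNA, where 20.0% of all genes were, and 3 were lower, where 19.6% were. Their median log2 fold change was 0.16, against -0.0054 over all genes. Of the 8, 7 changed by less than 1.5-fold, where only 9.31% of all genes tested changed by at least that much. The list was drawn up with results of these libraries known, and the study's own list of actin-linked genes from them holds CLDN1, CLDN4, OCLN, F11R, TJP1 and CGN, so these counts are no independent evidence of a direction.

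CLDN4 (gene 1364, chr7:73830996-73832690) encodes a claudin of simple and glandular epithelia that limits the passage of sodium. It was at 25.4, 26.2 and 29.0 CPM with control-siRNA and at 33.5, 32.9 and 40.8 CPM with TAZ-siRNA. All TAZ-siRNA libraries were above all control libraries, with TAZ-siRNA replicate 3 the highest. The log2 fold change was 0.41 (SE 0.088, 95% interval 0.22 to 0.61, edgeR adjusted p = 0.0083). CLDN4 stayed past the threshold when any 1 library was left out, with a log2 fold change of 0.31 to 0.47. It did so narrowly without control-siRNA replicate 1 (edgeR adjusted p = 0.048) or replicate 2 (0.049).

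CLDN12 (gene 9069, chr7:90403461-90415954) encodes a claudin without the C-terminal PDZ-binding motif that most claudins use to bind ZO proteins. Its levels were 129.9, 128.8 and 121.9 CPM with control-siRNA and 104.9, 105.0 and 102.6 CPM with TAZ-siRNA. The TAZ-siRNA libraries were close to each other and all lower. It fell by 0.28 on the log2 scale (SE 0.046, edgeR adjusted p = 0.0020), to 82.1% of control. CLDN12 and CLDN1 thus both fell, while CLDN12 kept most of its level.

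CLDN7 (gene 1366, chr17:7259903-7263193), a claudin found along the lateral membrane of epithelial cells, was at 4.41, 4.52 and 5.21 CPM with control-siRNA and at 3.83, 3.99 and 4.03 CPM with TAZ-siRNA. The groups did not overlap, but the difference did not pass the test, with a log2 fold change of -0.25 (95% interval -0.50 to -0.0059, edgeR adjusted p = 0.13). The last bases of ELP5, which had 1494 to 2358 counts on the opposite strand, overlap the end of CLDN7 (197 to 294 counts), and the use of strand in the authors' counting is not given in the sources used here. The CLDN7 value is uncertain to that extent.

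OCLN (gene 100506658, chr5:69492547-69558104) encodes occludin, the first transmembrane protein found in tight junction strands. Its levels were 22.0, 19.7 and 22.5 CPM with control-siRNA and 26.7, 23.2 and 24.6 CPM with TAZ-siRNA. The lowest TAZ-siRNA library was just above the highest control library. The log2 fold change of 0.22 (95% interval 0.050 to 0.38) missed the threshold with an edgeR adjusted p of 0.064, and it passed without TAZ-siRNA replicate 2 (adjusted p = 0.049) or replicate 3 (adjusted p = 0.030). In the other 4 fits without 1 library it did not pass, with adjusted p up to 0.25 and a change of 0.16 without control-siRNA replicate 2. The pseudogene copy OCLNP1 had 47 to 93 counts, against 1093 to 1950 for OCLN.

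MARVELD2 (gene 153562, chr5:69415116-69444330) encodes tricellulin, which seals the points where 3 cells meet, and lies 48216 bases from OCLN. It was at 4.92, 5.21 and 5.33 CPM with control-siRNA and at 5.64, 5.62 and 5.26 CPM with TAZ-siRNA. The groups overlapped, since TAZ-siRNA replicate 3 was below the highest control library. The log2 fold change was 0.10 (95% interval -0.12 to 0.31, edgeR adjusted p = 0.52), so a change of up to 0.31 on the log2 scale lies within the interval. The other member of this family, MARVELD3, was listed at 0 in all 6 libraries.

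F11R (gene 50848, chr1:160995211-161021152) encodes JAM-A, an immunoglobulin-type adhesion molecule that recruits polarity proteins to forming junctions. It was at 37.9, 38.5 and 39.2 CPM with control-siRNA and at 49.3, 51.9 and 52.4 CPM with TAZ-siRNA. Replicates lay close together in both groups, and the groups were far apart. Its log2 fold change of 0.41 (SE 0.052, edgeR adjusted p = 5.6e-04) was nearly that of CLDN4, with a smaller error. With any 1 library left out, F11R stayed past the threshold at 0.40 to 0.44.

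TJP1 (gene 7082, chr15:29699367-29969049, minus strand) encodes ZO-1, the scaffold that binds claudins, occludin and actin. Its levels were 169, 158 and 152 CPM with control-siRNA and 146, 143 and 147 CPM with TAZ-siRNA. In CPM the TAZ-siRNA libraries were all below the control libraries, which were the more spread. In TPM this separation was lost, with 51.7, 45.2 and 41.0 against 43.4, 42.4 and 43.5. The log2 fold change of -0.13 (95% interval -0.25 to -0.020) had an edgeR adjusted p of 0.088. Without 1 library the adjusted p ran from 0.037 (without TAZ-siRNA replicate 3) to 0.32 (without control-siRNA replicate 1, where the change was -0.087). The processed pseudogene HMGN2P5 lies within TJP1 on the opposite strand and had 273 to 501 counts, against 7067 to 11296 for TJP1.

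CGN (gene 57530, chr1:151510858-151538692) encodes cingulin, a plaque protein that links the junction to actomyosin and to a RhoA activator. It was low, at 3.19, 2.88 and 3.38 CPM with control-siRNA, and at 4.58, 5.78 and 4.01 CPM with TAZ-siRNA. All TAZ-siRNA libraries were higher, and replicate 2 stood highest. CGN rose by 0.60 on the log2 scale (SE 0.15, 95% interval 0.28 to 0.93, edgeR adjusted p = 0.016). It no longer passed without control-siRNA replicate 1 (adjusted p = 0.055), without control-siRNA replicate 2 (0.078) or without TAZ-siRNA replicate 2 (0.058).

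**Figure D2:**
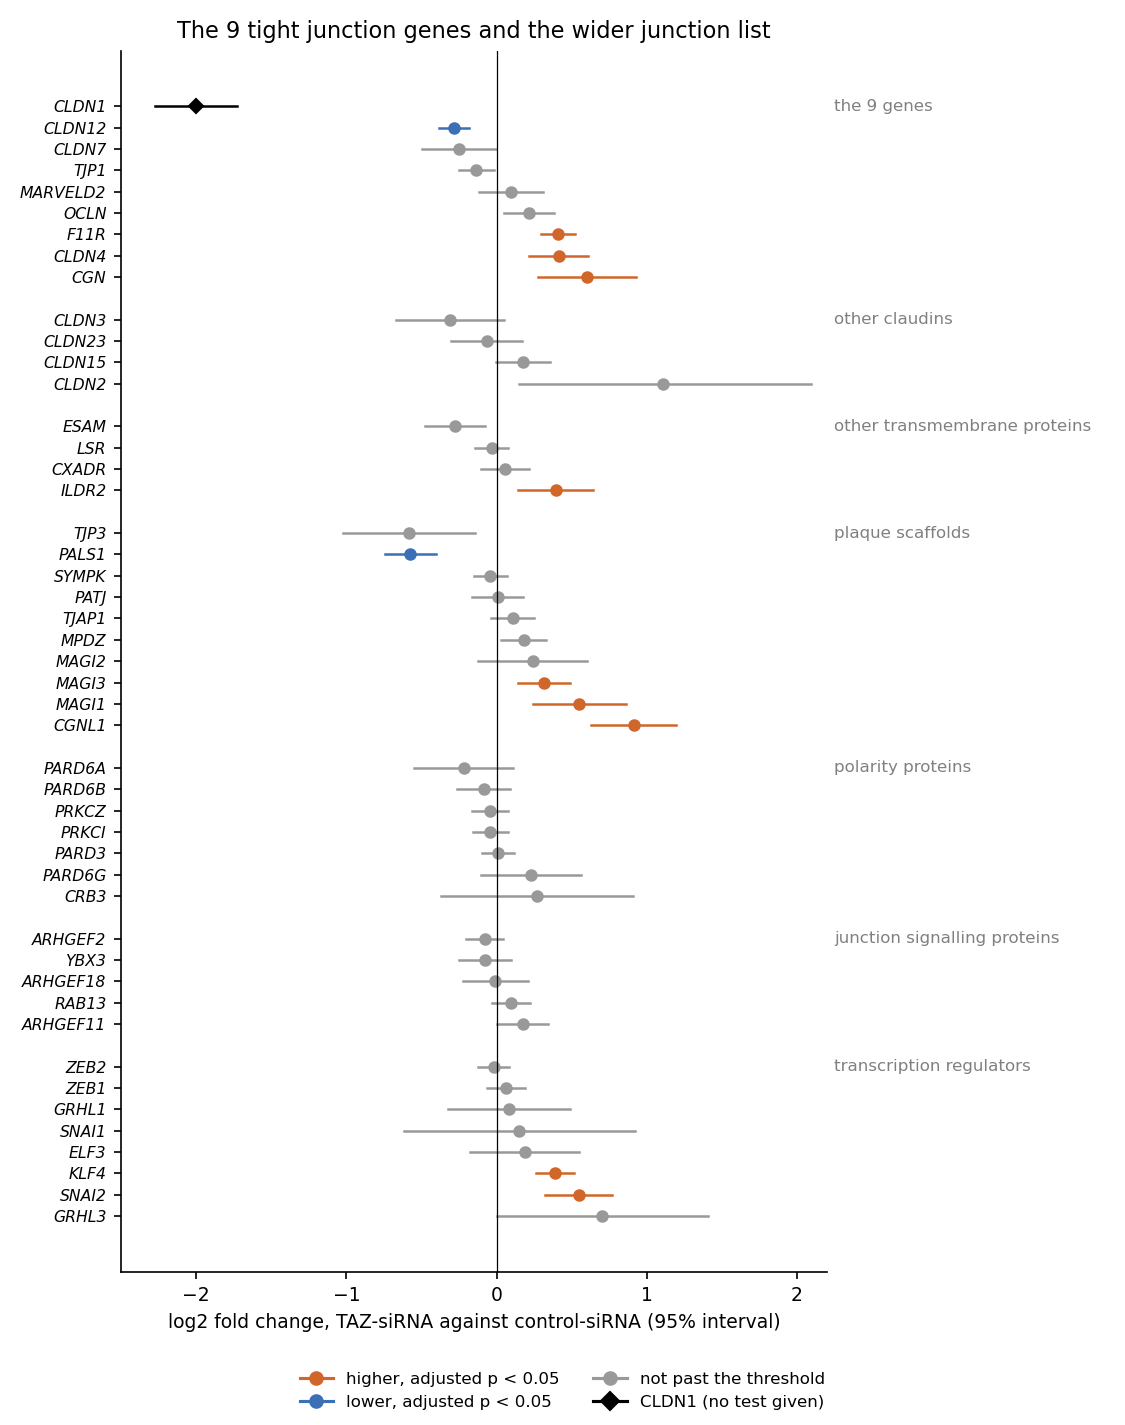
Log2 fold change of TAZ-siRNA against control-siRNA (n = 3 each) with its 95% interval for the 9 genes and a wider list, by role. The wider list holds tested junction genes and transcription regulators. Orange marks higher and blue lower at an edgeR adjusted p below 0.05, and grey marks genes that did not pass. CLDN1, drawn as a black diamond with no test, was chosen by this change, so its interval is a description only. It lies at -2.00 and apart from the other junction genes, which lie between -0.58 and 1.11. The 1.11 is CLDN2, which passed the count filter only through its TAZ-siRNA libraries.

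Levels of different genes were compared per length, in TPM. With control-siRNA the order was CLDN12 (78.5 ± 4.48), TJP1 (46.0 ± 5.39), CLDN4 (34.3 ± 1.61), F11R (18.0 ± 0.231), CLDN1 (16.1 ± 0.332), OCLN (7.56 ± 0.385), CLDN7 (6.84 ± 0.354), MARVELD2 (2.52 ± 0.0796) and CGN (1.34 ± 0.0833). Only OCLN and CLDN7 overlapped among neighbours. With TAZ-siRNA the order was CLDN12 (67.1 ± 3.90), CLDN4 (47.4 ± 3.67), TJP1 (43.1 ± 0.614), F11R (24.9 ± 0.821), OCLN (9.34 ± 0.811), CLDN7 (6.03 ± 0.198), CLDN1 (4.16 ± 0.717), MARVELD2 (2.83 ± 0.256) and CGN (2.12 ± 0.465). CLDN1 thus moved from rank 5 to rank 7, and CLDN4 and TJP1 exchanged places. Among TAZ-siRNA neighbours only MARVELD2 and CGN overlapped. The median gene tested was 0.052 higher on the log2 scale in TPM with TAZ-siRNA, and no direction given here for the 9 genes flipped between CPM and TPM.

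**Figure D3:**
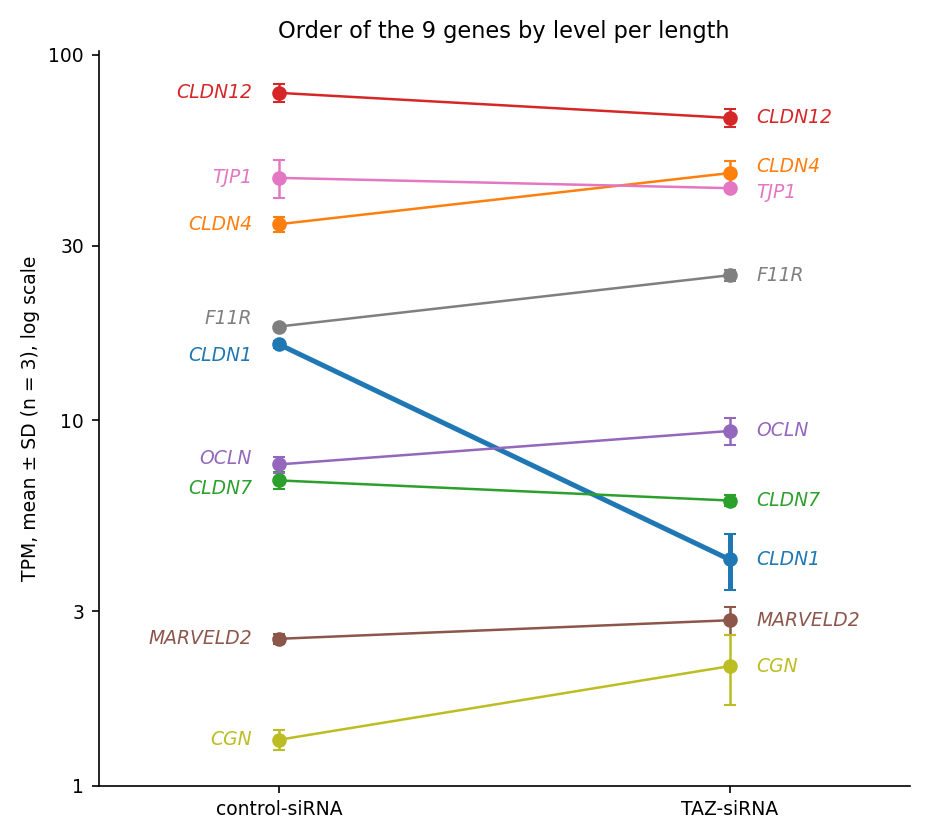
Level per length of the 9 genes in TPM on a log axis, as the mean ± SD of 3 libraries per group, joined by 1 line per gene. CLDN1, the thick line, goes from 16.1 to 4.16 TPM and passes below OCLN and CLDN7, CLDN4 and TJP1 cross, and CGN rises from 1.34 to 2.12 TPM.

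As a share of the summed TPM of 24 claudin genes, CLDN1 made up 10.1%, 10.3% and 10.9% of the control-siRNA libraries and 2.94%, 2.35% and 3.32% of the TAZ-siRNA libraries. CLDN4 went from 22.2 ± 1.53% to 32.8 ± 2.68%, and CLDN12, the most abundant claudin, from 50.7 ± 1.82% to 46.4 ± 2.48% (SD, n = 3). The ranges of CLDN1, CLDN4 and CLDN12 did not overlap between groups. The summed claudin level was 155 ± 3.35 TPM with control-siRNA and 145 ± 1.60 TPM with TAZ-siRNA. CLDN15 took 5.99 and 7.52% of the sum with control-siRNA and TAZ-siRNA, also without overlap, CLDN7 4.42 and 4.16%, and CLDN23 3.82 and 4.05%. CLDN1 stood above all 3 with control-siRNA and below them with TAZ-siRNA. These shares are descriptions, since CLDN1 is part of the sum, and a share rises when another member falls.

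**Figure D4:**
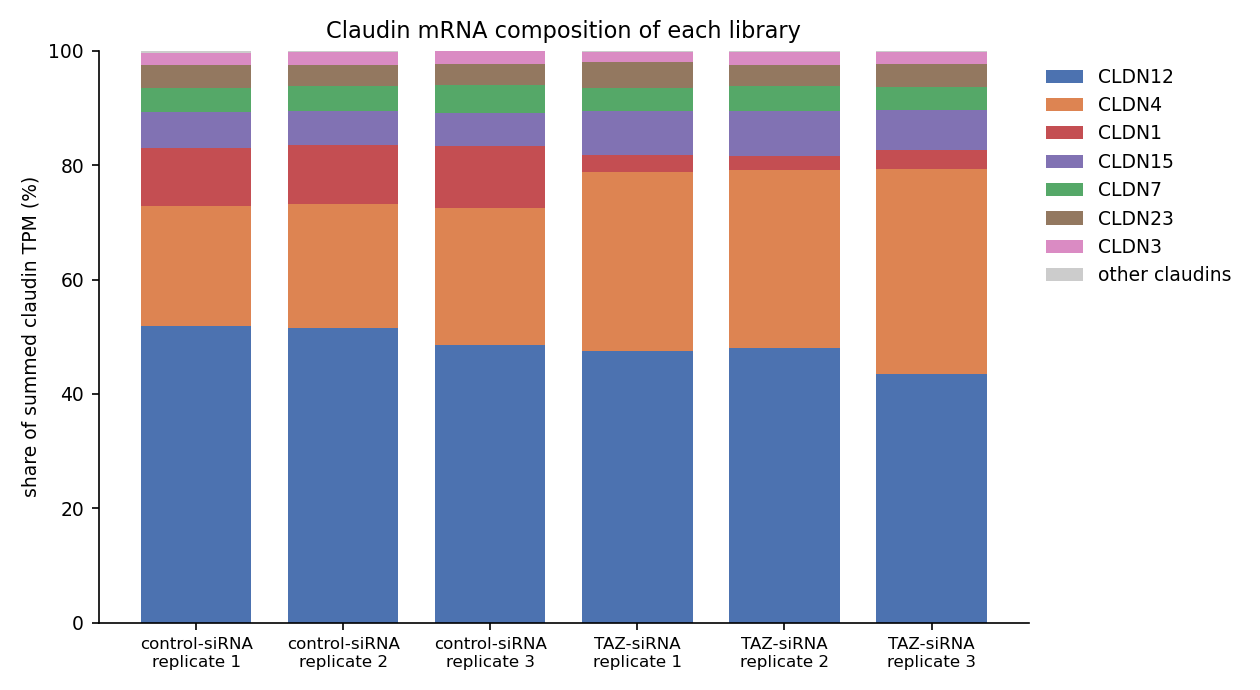
Share of the summed claudin TPM (%) taken by each claudin in each of the 6 libraries, as stacked bars from 0 to 100%. The red CLDN1 segment narrows from 10.1 to 10.9% with control-siRNA to 2.35 to 3.32% with TAZ-siRNA, and the orange CLDN4 segment widens in all 3 TAZ-siRNA libraries.

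The transcript table splits several of these genes over alternative RefSeq transcripts. CLDN4, like CLDN1, has 1, and for F11R 1 transcript took 97.7 to 100% of the TPM in every library. For TJP1, 20 transcripts are listed, of which 10 begin at the distal start sites (29968695 to 29969049) and 10 at proximal ones (29820674 to 29822468). The proximal group held 99.8 to 100% of TJP1 TPM in each library, and the distal group 0 to 17 counts, which holds in both groups. Within the proximal group the leading transcript differed between libraries.

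CGN showed how little such a split carries for a low gene. All CGN reads were given to 1 predicted transcript in control-siRNA replicate 1 and TAZ-siRNA replicate 3, and all to the curated transcript in the other 4 libraries, so the assignment did not follow the groups. For MARVELD2 the transcript that led 5 of the 6 libraries took 43.3 to 100% of the TPM, and another led in TAZ-siRNA replicate 1. For OCLN and CLDN7 1 transcript led in every library, with 63.8 to 94.0% and 61.3 to 93.8%. These ranges span libraries of the same group, and no transcript difference is given for them.

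A wider list of 64 genes, made of 52 junction genes and 12 transcription regulators, was examined beside the 9. Of these 64 genes, 39 were expressed enough to be tested, and 10 were listed at 0 in all libraries. A count of 3 corresponds to 0.0418 to 0.0621 CPM. Of the 39, 6 were higher and 1 was lower, against 11.9% and 10.2% of all genes. The median log2 fold change was 0.072, and 36 of the 39 changed by less than 1.5-fold, where only 9.31% of all genes tested changed by at least that much. Without the regulators 31 were tested, with 4 higher, 1 lower and a median log2 fold change of 0.0089. In either direction 7 of the 39 were called, against 22.1% of all genes, so the wider list held no excess of calls.

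Among the other claudins, 4 of 20 were tested and none passed with edgeR, DESeq2 or limma, where edgeR called 22.1% of all genes. CLDN15 was at 9.27 TPM with control-siRNA and 10.9 TPM with TAZ-siRNA, and CLDN23 at 5.92 and 5.87 TPM. CLDN2, which forms pores for cations, was near the detection limit at 0.064 to 0.16 CPM with control-siRNA and 0.25 to 0.29 CPM with TAZ-siRNA. Its counts were 10, 4 and 8 with control-siRNA and 18, 14 and 16 with TAZ-siRNA. It passed the count filter only through the TAZ-siRNA libraries, so no conclusion is drawn from its p-value or fold change. Of the other transmembrane proteins, 4 of 9 were tested. ILDR2, an angulin of tricellular contacts, rose by 0.39 (edgeR adjusted p = 0.030) but lost its call without control-siRNA replicate 2 or 3 or TAZ-siRNA replicate 1 or 2, with adjusted p up to 0.12. LSR, another angulin and the most abundant of them, stood at 65.2 and 65.7 TPM. ESAM, an adhesion molecule related to JAM-A, had a log2 fold change of -0.28 and an edgeR adjusted p of 0.0502.

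All 11 plaque scaffolds were tested, with 3 higher and 1 lower, against 11.9% and 10.2% of all genes. CGNL1 encodes paracingulin, the relative of cingulin. It was at 3.99, 3.37 and 3.83 CPM with control-siRNA and at 6.51, 8.25 and 6.36 CPM with TAZ-siRNA, well above. It rose by 0.91 on the log2 scale (SE 0.13, edgeR adjusted p = 9.8e-04) and kept its call without any 1 library, so the pair of cingulin genes rose together, CGN with less certainty. PALS1, listed as MPP5, is the scaffold between the Crumbs proteins and PATJ. It was at 78.7, 74.9 and 64.8 CPM with control-siRNA and at 51.4, 50.2 and 45.1 CPM with TAZ-siRNA, lower in all 3, and fell by 0.57 (edgeR adjusted p = 7.8e-04).

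The inverted MAGUK genes MAGI1 and MAGI3 rose by 0.55 and 0.32 (edgeR adjusted p = 0.024 and 0.016). MAGI1 was at 107, 102 and 88.9 CPM with control-siRNA and at 156, 164 and 117 CPM with TAZ-siRNA, where replicate 3 was the lowest of its group. MAGI1 lost its call without control-siRNA replicate 2 or 3 or TAZ-siRNA replicate 1, and MAGI3 without those or TAZ-siRNA replicate 2, with adjusted p up to 0.076 and 0.075. SYMPK, at 143, 143 and 140.0 CPM against 139, 144 and 131 CPM, did not pass. None of the 7 polarity genes passed with edgeR, DESeq2 or limma, where edgeR called 22.1% of all genes. PRKCI and PARD3, the most abundant, had edgeR adjusted p of 0.62 and 0.92. None of the 5 junction signalling genes passed with any of these tools, against the same 22.1%. Without TAZ-siRNA replicate 3, edgeR called 2 of the 5, ARHGEF11 higher and YBX3 lower, where it called 33.7% of all genes. The 5 include ARHGEF2 (GEF-H1), the RhoA activator that cingulin holds at the junction, at -0.080 (95% interval -0.21 to 0.045), and YBX3 (ZONAB), a partner of ZO-1.

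Of 12 transcription regulators with known roles in epithelial junction genes, 8 were tested and 2 rose, where 11.9% of all genes did. SNAI2, which encodes the repressor Slug, was at 20.1, 18.4 and 18.7 CPM with control-siRNA and at 27.3, 23.8 and 32.5 CPM with TAZ-siRNA. It rose by 0.55 (edgeR adjusted p = 0.0044). KLF4, a regulator of epithelial differentiation, was at 147, 136 and 140.3 CPM and at 186, 173 and 196 CPM, and rose by 0.39 (edgeR adjusted p = 0.0012). Both were higher in every TAZ-siRNA library. SNAI1 varied most within its group, at 39.3, 26.3 and 56.0 CPM with TAZ-siRNA, and had an adjusted p of 0.77. Epithelial regulators GRHL2, OVOL1 and OVOL2 were too low to test, and TWIST1 was listed at 0.

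The 5 genes with the profile nearest to CLDN1 over the 6 libraries were DKK1, DIO2, RIMS2, HIF1A-AS3 and LPAR1, out of 13590 genes averaging at least 1 CPM. Nearness was the Euclidean distance between log2 CPM after removal of each gene's mean, and it ran from 0.49 for DKK1 to 0.56 for LPAR1. Since CLDN1 is separated by group, these are genes with a like fall, of -1.76 to -2.29 on the log2 scale. DKK1, a secreted Wnt inhibitor, went from 127, 111 and 112 CPM to 32.7, 32.6 and 36.7 CPM. LPAR1, a receptor for lysophosphatidic acid, went from 17.6, 15.6 and 14.3 CPM to 4.13, 4.50 and 4.73 CPM.

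**Figure D5:**
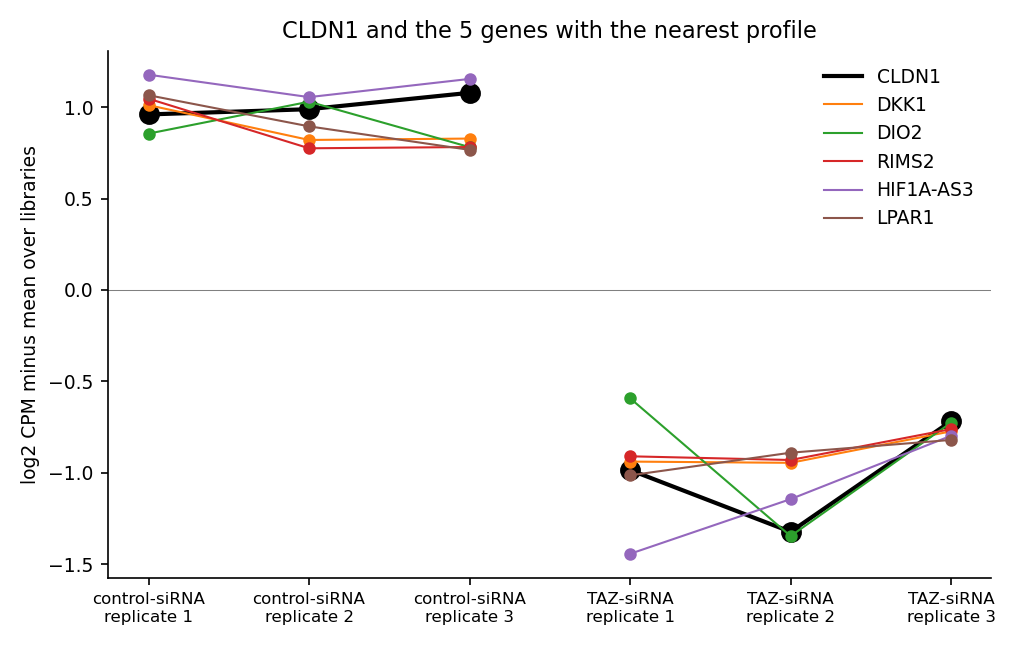
Log2 CPM minus each gene's mean over the 6 libraries for CLDN1 (black) and the 5 genes nearest to it, with 1 point per library and lines joined within a group only. All 6 genes lie above their mean in each control-siRNA library and below it in each TAZ-siRNA library, and CLDN1 has its lowest point in TAZ-siRNA replicate 2.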

How the data were processed

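RNA of control-siRNA and TAZ-siRNA cells was sequenced from 3 preparations each. The authors mapped trimmed reads to GRCh38 with HISAT2 and assembled RefSeq genes with StringTie. The submitters' processing notes also name Bowtie 0.12.2 and mm8, but CLDN1 and the other genes lie at their GRCh38 positions. The labels name 2 library kits, 1 of them stranded. The deposited estimated counts per gene and transcript were whole numbers. For the deposited FPKM and TPM, the authors corrected counts for transcript length and sequencing depth.

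The test was the quasi-likelihood test of edgeR 4.0.16 in R 4.3.3, with TMM factors, filterByExpr (minimum count 10) and p-values adjusted by Benjamini-Hochberg over every gene tested. P-values measure only the spread between these preparations. Intervals are 95%, and the floor of 3 counts covers counting error only. The fit was tested on simulated data. Alternatives were DESeq2 1.42.0, limma 3.58.1 after adding 1 or 0.1 to FPKM and taking log2, other factors and filters, a replicate block, a threshold of 0.01 and leaving out each library. The 9 genes, the wider list and the tests were chosen with earlier results of these data known. Genes named beside the 9 were, for each sub-list, those called and the 2 with the highest mean TPM, the markers, and the 5 nearest to CLDN1, and 1 gene this rule names is not reported here or drawn. MARVELD3, CLDN2, GRHL2, OVOL1, OVOL2, TWIST1, ARHGEF11 and TJP3 were named after their values were seen. Protein sequences were not analysed here.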

Additional observations from a re-analysis of the deposited data

How the results depend on the processing

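No log2 fold change of the 9 genes, WWTR1 or the 7 called genes of the wider list reversed under these alternatives. CLDN4, CLDN12, F11R, CGNL1, PALS1, SNAI2 and KLF4 kept their calls under the other tools, factors and filters, the block and all 6 fits without 1 library. CLDN1 lay at -1.53 with limma on log2(FPKM + 1), which understates changes of low genes, and at -2.14 to -1.86 without 1 library. CGN was 0.25 with limma on log2(FPKM + 1), and was lost on log2(FPKM + 0.1) (adjusted p = 0.060), MAGI1 with no filter (0.057), and ILDR2 and MAGI3 with limma at either pseudocount (0.15 and 0.19, 0.068 and 0.057).

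Genes called over the whole table ranged from 1937 to 5928 without 1 library (higher 1102 to 3102, lower 835 to 2826), the most (33.7%) without TAZ-siRNA replicate 3 and the fewest without control-siRNA replicate 2. At an adjusted p of 0.01, 1720 were called (977 higher and 743 lower). Of the 39 tested genes of the wider list, 4 were called at 0.01, 3 of them higher, where 10.1% of all genes were called. Without 1 library the wider list had 4 to 11 calls (3 to 8 higher, 1 to 3 lower). Over all genes these fits called 11.2 to 33.7% (6.39 to 17.6% higher, 4.84 to 16.1% lower). The wider list had 2 lower calls with DESeq2, with upper-quartile factors and with no filter, where ESAM joined PALS1, and 3 with at least 10 counts in every library, where TJP3 joined too. Under these 4 settings 5.98 to 11.4% of all genes were lower. Among the 8 tested genes, 1 to 2 were called lower and 2 to 4 higher without 1 library (4.84 to 16.1% and 6.39 to 17.6% of all genes), TJP1 and OCLN joining without TAZ-siRNA replicate 3.

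Same-numbered samples had correlations of -0.017, 0.0086 and 0.070 across genes, within the -0.095 to 0.10 of differently numbered samples. A correlation over all genes can miss a shared effect in some of them. Whether the replicate numbers pair the samples was thus not decided. With a replicate block 5122 genes (30.2%) were called, against 22.1% without it. The block gave 2 lower calls among the 8, TJP1 joining CLDN12 (adjusted p = 0.034), OCLN passed (adjusted p = 0.018), and the wider list had 2 lower calls, where 14.9% of all genes were lower. CGN had 164 to 334 counts a library and CLDN7 197 to 294, which bounds the precision of both.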
